A study of Mus musculus with 4 samples.

Results

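Transcription factor genes that give the intestinal epithelium its identity, 10 in number, were followed through single cells of mouse small intestinal adenomas, and all 10 were found among the 27514 genes that the gene tables of the 4 libraries have in common. They were chosen by name and comprise the caudal homeobox genes Cdx1 and Cdx2, the nuclear receptors Hnf4a and Hnf4g, the zinc finger genes Gata4, Gata5 and Gata6, the cut-homeobox gene Onecut2, and the Krüppel-like genes Klf4 and Klf5. Each library was single-cell RNA of pooled, unsorted small intestinal adenomas from male C57BL/6 mice of 11 weeks. All mice carried ApcMin/+, a truncating germline allele of the Wnt pathway inhibitor Apc, so that the groups shared adenoma formation and none was free of tumors. Libraries labelled ApcMin (n = 2) had Lef1 +/+, and libraries labelled VApcMinL (n = 2) had Lef1 fl/fl with Villin-Cre, a recombinase driven by an intestinal epithelial promoter. Replicate 1 of each label was made with reagent kit version 2 and replicate 2 with version 3, so that the replicate number and the kit cannot be told apart.

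In the gut, Cdx1 and Cdx2 are the homeodomain factors that specify intestine as opposed to stomach. Hnf4a and Hnf4g bind fatty acids and switch on the absorptive genes of enterocytes, often on the same enhancers as the Cdx proteins. Gata4 and Gata6 set the proximal program of the small intestine, and Gata5 is another endodermal member of that family. Klf5 is known from dividing crypt cells, whereas Klf4 is known as a brake on the cell cycle in differentiated and goblet cells. Crypts are the pits at the base of the villi that hold the stem and progenitor cells.

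The labels were checked first through the targeted gene. In adenoma cells Lef1, a partner of beta-catenin, was at 10.9 CPM (unique molecular identifiers, UMIs, each a counted molecule, per 1000000 UMIs of the class) in the library labelled ApcMin replicate 1 and at 38.5 in ApcMin replicate 2. It was at 30.5 in the library labelled VApcMinL replicate 1 and at 24.6 in VApcMinL replicate 2. Both libraries labelled VApcMinL thus lay within the range of those labelled ApcMin, and whether 3′ counts register a deletion of the floxed part cannot be told from these counts. Xist, which is transcribed from the inactive X of females, was called higher in the libraries labelled VApcMinL in crypt, enterocyte and secretory cells, although all mice are labelled male. Every direction between the labels below therefore rests on the labels as deposited. The 4 libraries gave 2071 to 4217 cells with at least 2000 UMIs and at most 20% mitochondrial UMIs. The limit on mitochondrial UMIs removed 61.6% of the barcodes of ApcMin replicate 2 and 20.4% to 26.5% in the other libraries. Pairs of libraries shared between 0 and 9 cell barcodes.

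Epithelial cells were gated by markers that include none of the 10 factors. Adenoma cells (3056, with Notum, Nkd1, Prox1, Axin2 and other Wnt targets), crypt cells (483, with Olfm4, Slc12a2 and Dmbt1), enterocytes (2609, with Alpi, Apoa1 and Apoa4) and secretory cells (409, mostly goblet cells) were summed per library, giving 16 sums. Leukocytes (1166 cells) and stromal cells (358) of the same libraries served as a measure of free RNA. The adenoma marker sum was between 598 and 2048 CPM in adenoma cells and between 47.5 and 74.1 in crypt cells. A gate is a range on a score and not a sharp boundary, since 446 epithelial cells lay within 10% of the adenoma cutoff and 468 within 10% of the crypt cutoff.

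The promoters of Cdx2 and Hnf4a are shown first, because the results turn on these 2 genes and each belongs to a different factor family. In RefSeq (GRCm38.p6) 4 of the 10 genes were matched, with 5 promoters. Cdx2 (ENSMUSG00000029646, chr5:147300805-147307270, minus strand) has 1 listed start, with the bases of chr5:147307250-147307499 before it, of which 21 lie in an annotated exon. Hnf4a (ENSMUSG00000017950, chr2:163506808-163572910, plus strand) has 2 listed starts that lie 40298 bases apart, with chr2:163506607-163506837 before the first and chr2:163546905-163547146 before the second. Counts of 3′ ends do not tell these starts apart. Each sequence runs 5′ to 3′ on the strand of the gene, and capitals mark matches to short motifs.
Cdx2: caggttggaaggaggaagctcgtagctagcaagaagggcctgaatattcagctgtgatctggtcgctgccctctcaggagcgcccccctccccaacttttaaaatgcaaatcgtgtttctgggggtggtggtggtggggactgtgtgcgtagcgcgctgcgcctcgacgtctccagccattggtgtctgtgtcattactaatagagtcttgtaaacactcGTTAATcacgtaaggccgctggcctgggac
Hnf4a first start: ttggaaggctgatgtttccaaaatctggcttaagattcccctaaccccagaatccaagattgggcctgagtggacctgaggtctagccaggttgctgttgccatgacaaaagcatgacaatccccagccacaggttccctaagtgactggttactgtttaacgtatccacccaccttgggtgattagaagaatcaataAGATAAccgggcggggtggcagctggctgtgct
Hnf4a second start: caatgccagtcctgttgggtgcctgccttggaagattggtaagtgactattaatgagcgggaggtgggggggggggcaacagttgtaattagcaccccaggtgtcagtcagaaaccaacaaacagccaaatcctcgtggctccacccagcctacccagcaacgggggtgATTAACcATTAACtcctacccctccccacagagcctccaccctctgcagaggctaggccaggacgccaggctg
Motifs were searched on both strands in the full 250 bases before each start, of which the sequences printed for Hnf4a are the first 231 and 242. The HNF1 motif GTTAAT stood at positions -30 to -25 of Cdx2 and, in the other orientation (ATTAAC), at -81 to -76 and -74 to -69 before the second start of Hnf4a. It was present in 6.43% of all 32851 promoters of that length. The GATA motif AGATAA stood at -52 to -47 before the first start of Hnf4a and in 9.99% of all promoters. Neither the CDX motifs TTTATGG and TTTATTG (6.51% of all promoters) nor the HNF4 motifs CAAAGTC and CAAAGTT (2301 promoters), the KLF motif CCACACCC (3.20%) and the TCF/LEF motifs CTTTGAA and CTTTGAT (7.48%) were in any of the 5 matched promoters of Cdx2, Hnf4a, Gata5 and Klf4. A match is a description of letters and not a measured binding site.

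Adenoma cells were first compared with crypt cells of the same libraries, as defined by the gate. Whether those crypt cells were normal or dividing was not tested. Cdx1, Cdx2, Hnf4a, Hnf4g and Klf5 fell, Gata5 and Klf4 rose, and Gata4, Gata6 and Onecut2 did not pass the test (edgeR quasi-likelihood test over 11685 genes with library as a block, Benjamini-Hochberg adjusted p under 0.05). The 7 members called compare with 42.5% of all genes called in this comparison, 18.9% lower and 23.5% higher. Changes are given on the log2 scale after TMM scaling, with their standard errors, and levels as CPM.

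**Figure D1:**
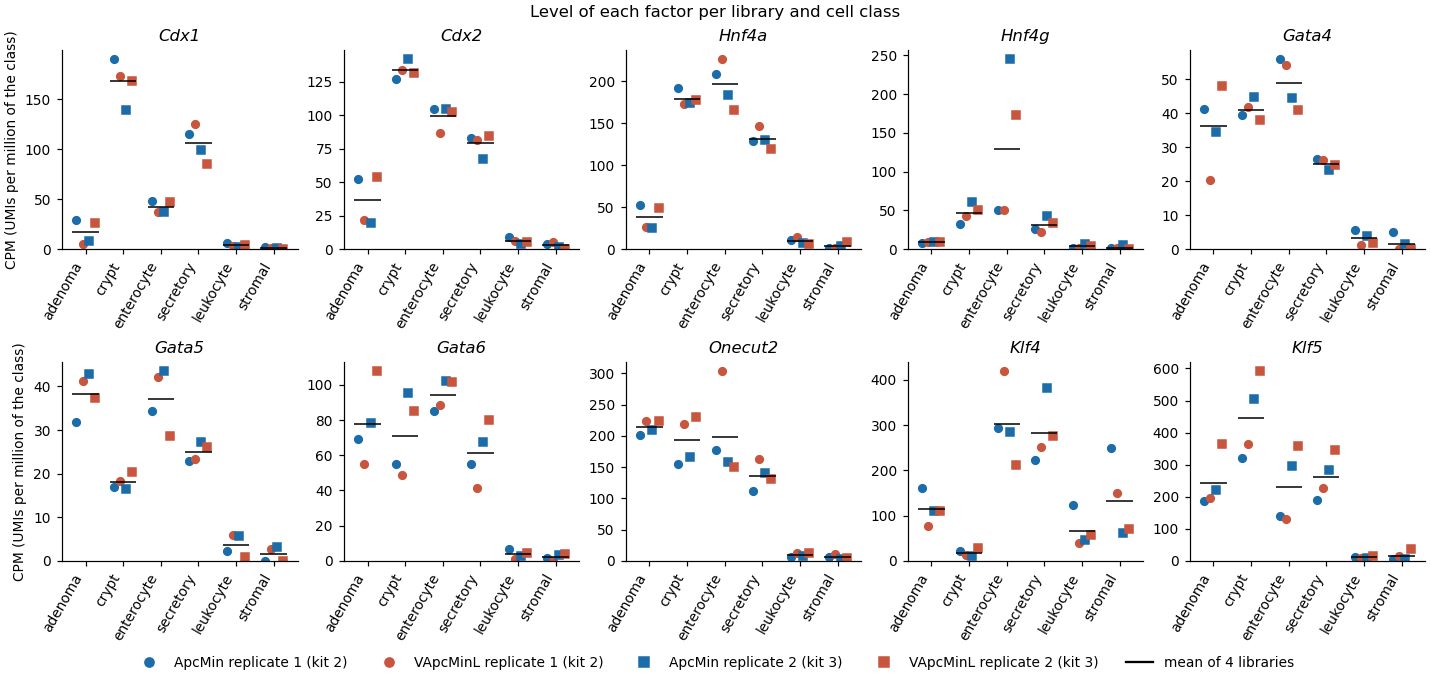
CPM (y axis, from 0) for each factor in adenoma, crypt, enterocyte, secretory, leukocyte and stromal cells (x axis), with 1 point per library, colour for the label, shape for the kit and a line at the mean of 4 libraries. The adenoma points of Cdx1, Cdx2, Hnf4a and Hnf4g lie below all their crypt points, whereas those of Klf4 lie above them.

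Cdx1 (ENSMUSG00000024619, chr18:61018862-61036199) showed the largest fall of the 10. In adenoma cells it was at 29.0 CPM in ApcMin replicate 1, 5.42 in VApcMinL replicate 1, 8.04 in ApcMin replicate 2 and 26.4 in VApcMinL replicate 2. In crypt cells the same libraries gave 190, 173, 139 and 169, so that the ranges were far apart. The fitted change was -3.51 ± 0.37 (SE, adjusted p = 2.19e-06), an 11.4-fold fall. Within single libraries the change ran from -2.78 in VApcMinL replicate 2 to -5.08 in VApcMinL replicate 1. The lowest adenoma value, 5.42, lay within the range of leukocytes, 1.93 to 6.52. Enterocytes held an intermediate level of 42.5 ± 6.19 (SD, n = 4) and secretory cells one of 106 ± 17.7. Cdx1 was therefore ordered crypt, secretory, enterocyte, adenoma, and of the neighbours only secretory and crypt did not differ beyond the test (-0.33 ± 0.35, 95% interval -1.07 to 0.40).

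Cdx2 fell by less than Cdx1 and by a similar amount whether crypt cells or enterocytes were the reference. Its adenoma levels were 52.0 and 21.9 with kit version 2 and 19.3 and 54.2 with version 3, in each kit with the library labelled ApcMin first. Its crypt levels were 127, 134, 142 and 132 in that order. All adenoma values were below all crypt values, and the same 2 libraries that were high for Cdx1 in adenoma cells were high for Cdx2. The change was -2.05 ± 0.26 against crypt cells (adjusted p = 1.38e-05, 4.13-fold) and -2.18 ± 0.26 against enterocytes (adjusted p = 1.23e-06). The other classes differed less from each other, at 99.8 ± 8.71 in enterocytes and 79.0 ± 7.90 in secretory cells. Enterocytes did not differ from crypt cells beyond the test (0.13 ± 0.25, interval -0.40 to 0.66, and -0.43 with library totals as the only scaling). Secretory cells did not pass either (-0.48 ± 0.26, adjusted p = 0.149), but gave -0.77 with an adjusted p of 0.0156 under library totals, -0.59 (0.0256) without a filter on low counts and -0.46 (0.0236) when only both classes were fitted.

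Hnf4a followed a course like that of Cdx2 across the 16 sums (Pearson r = 0.935 on log2(CPM + 1)). Its mean was highest in enterocytes, however, and that of Cdx2 in crypt cells. Its adenoma levels were 52.9, 26.6, 25.4 and 48.5 in the library order used for Cdx2, against 192, 173, 174 and 177 in crypt cells. Within a library the adenoma level was between 0.146 and 0.275 of the crypt level. The change was -2.37 ± 0.22 (adjusted p = 6.11e-07, 5.16-fold). Enterocytes were at 196 ± 26.8 and 0.68 ± 0.21 above crypt cells (adjusted p = 0.00853), but this rise was 0.13 with an adjusted p of 0.555 when only library totals were used for scaling. Secretory cells, at 131 ± 11.7, did not differ from crypt cells (-0.15 ± 0.21, interval -0.60 to 0.31).

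Hnf4g (ENSMUSG00000017688, chr3:3508030-3658052), the paralog of Hnf4a, had nearly the same low level in the adenoma cells of every library. It was at 7.76, 9.42, 9.73 and 9.77 CPM in adenoma cells in the same library order, and at 32.1, 42.5, 60.3 and 50.4 in crypt cells. The change was -2.41 ± 0.34 (adjusted p = 3.88e-05), and unlike for the Cdx genes the 4 adenoma values were close to each other. Enterocytes split by kit, with 50.9 and 50.4 in the replicate 1 libraries and 245 and 173 in the replicate 2 libraries. The rise over crypt cells was called (1.89 ± 0.32, adjusted p = 7.16e-05) and held in every library, at 1.01 and 0.76 with kit version 2 and at 2.72 and 2.37 with version 3. The gap of adenoma cells to enterocytes was -4.30 ± 0.34, at -3.16 and -3.05 with kit version 2 and -5.46 and -4.83 with version 3. The gene tables of the kits differ, and whether Hnf4g was annotated alike in both is not given in the sources used here.

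Of the GATA factors Gata5 rose, and Gata4 and Gata6 did not pass the test. Gata5 (ENSMUSG00000015627, chr2:180325133-180334699) was at 31.8, 41.1, 42.8 and 37.3 in adenoma cells and at 17.0, 18.4, 16.5 and 20.3 in crypt cells, with no overlap. It rose by 0.93 ± 0.15 (adjusted p = 0.000105), and this was a direction opposite to that of the Cdx and Hnf4 genes. Gata5 was also higher than in crypt cells in enterocytes (1.56 ± 0.15) and secretory cells (0.74 ± 0.17), so crypt cells were the lowest of the 4 classes.

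Gata4 (ENSMUSG00000021944, chr14:63198922-63271692) was at 41.4, 20.3, 34.7 and 48.2 in adenoma cells and between 37.9 and 44.7 in crypt cells. The groups overlapped, and the change of -0.32 ± 0.20 did not pass the test (adjusted p = 0.225, interval -0.75 to 0.11). Without VApcMinL replicate 2 it was -0.60 with an adjusted p of 0.0474. Gata6 (ENSMUSG00000005836, chr18:11052064-11085635) gave 69.2, 55.3, 78.4 and 108 in adenoma cells and 54.7, 48.8, 95.5 and 85.3 in crypt cells. Its change was 0.00 ± 0.14 (interval -0.28 to 0.29), and its sign turned under DESeq2 (-0.046) and with RLE factors (-0.043). Both genes were lower in adenoma cells than in enterocytes, at -1.12 ± 0.19 and -0.99 ± 0.13 on the log2 scale. These differences were called under every alternative tried.

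Onecut2 (ENSMUSG00000045991, chr18:64340020-64400987), a factor of the upper small intestine, liver and pancreas, had the narrowest relative spread in adenoma cells of the 10. It was at 202, 224, 210 and 223 there, and at 154, 219, 167 and 230 in crypt cells. The change of 0.04 ± 0.16 did not pass the test (interval -0.30 to 0.37), and its sign turned under DESeq2 and with RLE factors (-0.0073 and -0.0068). Enterocytes had 178, 303, 158 and 151, of which VApcMinL replicate 1 stood apart. The rise in enterocytes over crypt cells (0.54 ± 0.16, adjusted p = 0.00658) had an adjusted p of 0.0622 without that library and of 0.985 with library totals only.

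The Krüppel-like factors moved in opposite directions. Klf4 (ENSMUSG00000003032, chr4:55527143-55532466) was low in crypt cells, at 21.7, 13.3, 10.4 and 28.1, and was at 161, 76.8, 110 and 110 in adenoma cells. It rose by 2.45 ± 0.33 (adjusted p = 2.84e-05, 5.46-fold). Enterocytes (302 ± 86.3) and secretory cells (283 ± 69.7) were higher still and did not differ from each other beyond the test (0.34 ± 0.29, interval -0.28 to 0.97). Adenoma cells thus lay between crypt cells and the differentiated classes, at -2.09 ± 0.30 against enterocytes. Klf4 is also expressed outside the epithelium, with 66.8 ± 38.7 in leukocytes and 133 ± 86.8 in stromal cells. The summed stromal markers, all 8 detected, were at 54.6 to 88.3 CPM in adenoma cells and at 2.45 to 21.2 in crypt cells, against 7951 to 13988 in stromal cells themselves. Most of that sum in adenoma cells was Cdh5 (73.2, pooled over libraries, against 2.12 in crypt cells), and the collagen genes Col1a1, Col1a2 and Col3a1 were at 0.409 to 0.818 in adenoma and 0.572 to 1.14 in crypt cells. The summed leukocyte markers, all 8 detected, were at 4.42 to 40.5 in adenoma cells, 2.09 to 25.5 in crypt cells and 6517 to 8224 in leukocytes.

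Klf5 (ENSMUSG00000005148, chr14:99298691-99315036) was at 187, 196, 222 and 365 in adenoma cells and at 322, 364, 505 and 591 in crypt cells. It was lower in every library, at -0.82 to -1.32 on the log2 scale, although the adenoma value of VApcMinL replicate 2 was above the lowest crypt value. The change was -1.01 ± 0.18 (adjusted p = 0.000368), a 2.01-fold fall. Enterocytes (-0.46 ± 0.18, adjusted p = 0.0350) and secretory cells (-0.47 ± 0.19, adjusted p = 0.0489) were also below crypt cells. Neither call held without ApcMin replicate 1 (adjusted p = 0.174 in enterocytes and 0.0835 in secretory cells) or without VApcMinL replicate 1 (0.197 and 0.0626), and the secretory call was also lost without VApcMinL replicate 2 (0.0919), at a floor of 5000 UMIs (0.0664), with stricter gates (0.0678) and with the alternative adenoma markers (0.0503). Enterocytes split by kit, with 139 and 131 in replicate 1 and 297 and 359 in replicate 2.

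**Figure D2:**
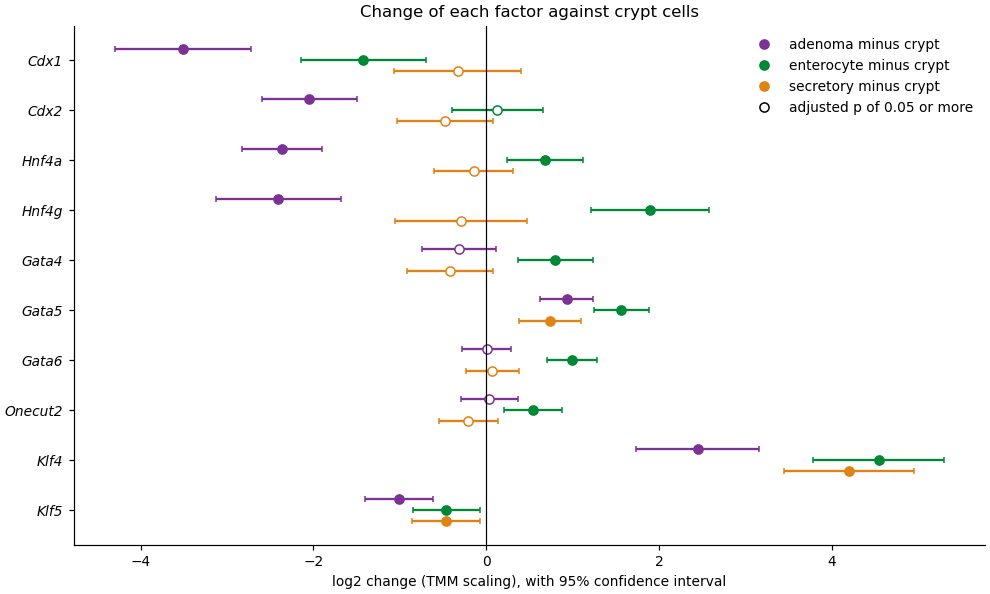
Log2 change after TMM scaling (x axis) of each factor (y axis) in adenoma cells, enterocytes and secretory cells against crypt cells, as points with 95% confidence intervals from edgeR and with open points where the adjusted p was 0.05 or more. Cdx2, Hnf4a and Hnf4g were called below crypt cells in adenoma cells and in neither of the other classes, and the Klf4 points of all 3 classes lie above 0.

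The other class comparisons place these levels among the gated classes. Against enterocytes all 10 factors were called lower in adenoma cells, in a comparison in which 78.6% of all genes were called. With library totals as the only scaling, the median of all genes moved from 0.08 to 0.77 and calls in the higher direction from 52.2% to 72.0% of calls. Under that scaling Gata5 was at 0.05, Onecut2 at 0.17 and Klf5 at 0.14, whereas Cdx1, Cdx2, Hnf4a, Hnf4g, Klf4, Gata4 and Gata6 were called lower there too. The call of Onecut2 was lost without VApcMinL replicate 1 (adjusted p = 0.118), and that of Klf5 without ApcMin replicate 2 (0.208) or VApcMinL replicate 2 (0.0606). With cells thinned to 2000 UMIs the calls of Gata5 (-0.46, adjusted p = 0.0606), Onecut2 (-0.17, 0.414) and Klf5 (-0.25, 0.231) were lost. In enterocytes against crypt cells 9 of the 10 were called, Cdx1 (-1.42 ± 0.34) and Klf5 lower and 7 higher, with 70.5% of all genes called. Of the 7, Gata4 was no longer called with library totals only (0.25, adjusted p = 0.278), nor Onecut2 with cells thinned to 2000 UMIs (0.28, adjusted p = 0.271). There library totals moved the median of all genes from 0.09 to -0.46 and the higher share of calls from 53.5% to 33.6%. In secretory against crypt cells only Gata5, Klf4 (4.20 ± 0.35) and Klf5 were called, with 46.9% of all genes called. The Gata5 call was lost with thinned cells (0.99, adjusted p = 0.145), and Gata4 and Onecut2 were called lower with library totals only (-0.70 and -0.49). The higher share of those calls was 54.6%, and 34.6% with library totals. Adenoma cells differed from secretory cells in 6 of the 10 factors (48.4% of all genes called), all lower, namely Cdx1, Cdx2, Hnf4a, Hnf4g, Klf4 and Klf5. The higher share of all calls there was 49.2%, and 76.0% with library totals. Enterocytes differed from secretory cells in 7 of 10 (61.6% of all genes called), with Cdx1 lower and Hnf4a, Hnf4g, Gata4, Gata5, Gata6 and Onecut2 higher. The higher share of calls in that comparison was 49.9%, and 36.0% with library totals.

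The fall was also described per cell, from the same UMIs as the sums and with cells pooled over the 4 libraries. Of the 3056 adenoma cells, 1780 came from VApcMinL replicate 2. A Cdx1 UMI was found in 24.6% of adenoma cells and 91.3% of crypt cells, at medians of 23143 and 19605 UMIs per cell. After every cell was thinned to 2000 UMIs these shares were 3.66% (exact binomial interval 3.03 to 4.39%) and 26.1% (22.2 to 30.2%), against 1.03% in leukocytes (0.534 to 1.80%). Hnf4a was found in 7.59% of thinned adenoma cells (6.68 to 8.59%), 28.2% of crypt cells (24.2 to 32.4%) and 2.15% of leukocytes, and unthinned in 54.6%, 93.4% and 4.72%. Klf4 went the other way, from 3.52% of thinned crypt cells (2.06 to 5.58%) to 19.7% of adenoma cells (18.3 to 21.2%), with 11.1% in leukocytes. Unthinned, Klf4 was found in 29.0% of crypt cells, 72.7% of adenoma cells and 19.6% of leukocytes, whose median was 4128 UMIs. Leukocytes hold Klf4 RNA themselves, so their share does not measure free RNA for this gene. The intervals cover counting error only and take cells as independent. In leukocytes the means of the 9 factors other than Klf4 were between 3.14 and 11.7 CPM, below the adenoma mean of each.

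The adenoma levels of Cdx1, Cdx2 and Hnf4a varied between libraries, whereas those of Hnf4g stayed between 7.76 and 9.77 CPM. In the libraries ApcMin replicate 1 and VApcMinL replicate 2, where Cdx1, Cdx2 and Hnf4a were highest, the summed adenoma markers were at 598 and 693 CPM. In VApcMinL replicate 1 and ApcMin replicate 2, where the 3 factors were lowest, that sum was 2048 and 1886. The crypt marker sum in adenoma cells followed the kit, at 225 and 225 in replicate 1 and 338 and 317 in replicate 2. Its part in the spread was not tested. Each library's adenoma cells were then divided at that library's median share of adenoma marker UMIs, a division chosen after the levels were seen. Between the lower and the upper part Cdx2 went from 32.1 to 8.61 in VApcMinL replicate 1 and from 29.7 to 7.91 in ApcMin replicate 2. It went only from 52.8 to 51.1 in ApcMin replicate 1 and from 55.2 to 53.0 in VApcMinL replicate 2. Cells with more adenoma markers thus had less Cdx2 in the 2 libraries with high marker sums, and nearly the same in the other 2. Cdx1 went from 7.84 to 2.26 and from 11.7 to 4.04 in the first pair, and from 30.7 to 26.8 and from 27.3 to 25.3 in the second. Hnf4a went from 35.7 to 14.6 and from 33.1 to 17.0 in the first pair, and from 57.1 to 47.6 and from 49.4 to 47.5 in the second. Klf5 and Gata4 were also lower in the upper part in 4 of 4 libraries, with mean differences of -0.55 ± 0.52 and -0.62 ± 0.63 (SD, n = 4) on the log2 scale. Gata5 was higher in 4 of 4, by 0.16 ± 0.16, and Gata6 (0.15 ± 0.19), Onecut2 (0.09 ± 0.10) and Hnf4g (mean -0.03 ± 0.35) in 3 of 4. Klf4 was higher in 2 of 4 (-0.02 ± 0.48). Depth differed between the parts, with medians of 20256 to 34394 UMIs per cell in the lower and 15432 to 28069.5 in the upper part. With 4 pairs an exact two-sided permutation test cannot reach 0.05, and none was made.

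**Figure D3:**
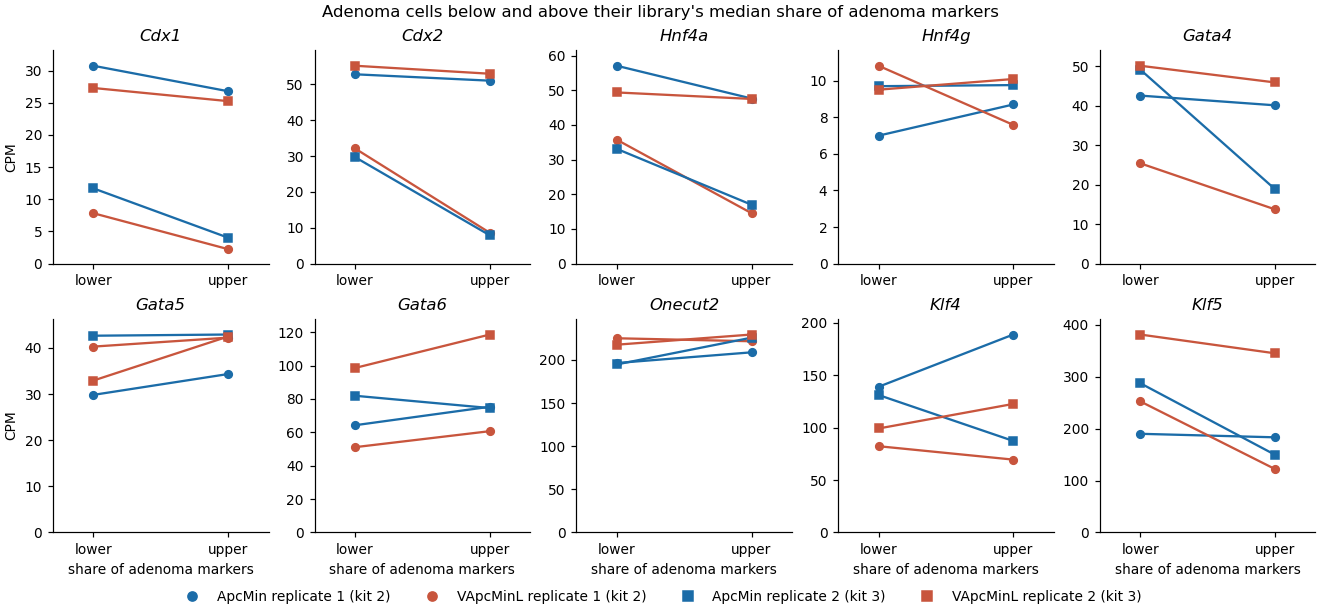
CPM (y axis, from 0) of each factor in the adenoma cells below (lower) and above (upper) the median share of adenoma markers of their library (x axis), with a line per library, colour for the label and shape for the kit. Cdx1, Cdx2 and Hnf4a drop steeply in the libraries that already hold little of them, and Onecut2 stays between 195 and 229.5 in both parts.

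Secretory cells were 306 goblet, 44 enteroendocrine, 43 tuft and 16 Paneth cells, too few for a test by type. Cdx2 was at 89.9, 86.0, 68.4 and 92.8 in goblet cells in the library order used for Cdx2 above, and between 16 and 43.5 in the few Paneth cells. Onecut2 was at 111, 164, 150 and 118 in goblet cells and at 47.9, 45.7, 43.5 and 48.1 in Paneth cells. Paneth markers alone made up 196064 to 293390 CPM in Paneth cells, and the goblet markers 121397 to 275472 in goblet cells, so the levels of all other genes there are relative to what these RNAs leave. Klf4 was highest in goblet cells of ApcMin replicate 2 (456) and between 258 and 308 in those of the other libraries.

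Across the 16 sums Cdx2 and Hnf4a had a Pearson r of 0.935 on log2(CPM + 1), Cdx1 and Cdx2 one of 0.868, and Hnf4a and Hnf4g one of 0.776. Among 11610 genes tested and not used as markers, the gene most like Hnf4a was Mapk13 (r = 0.979), followed by Gstt3 (0.971). Cdx2 was most like Cd38 (0.952) and Mapk13 (0.949), Cdx1 like Frat2 (0.954) and Far2 (0.949), and Hnf4g like Chp2 (0.964) and Adgrg7 (0.946). Klf4 was most like Cdkn1a, an inhibitor of cyclin-dependent kinases (0.964), and Pfkfb3 (0.956). Gata5 was most like Pak1 (0.969) and Creb3l2 (0.941), Gata6 like Sptan1 (0.925) and Fnbp1l (0.919), and Gata4 like Smpdl3b (0.885) and Bri3bp (0.864). Onecut2 was most like Efr3a (0.937) and Ammecr1l (0.838), and Klf5 like Mrps31 (0.936) and Nfu1 (0.880). Within the 8 sums of 1 kit these r values were between 0.736 and 0.990. The sums share 4 libraries, their kits and the class totals, so these values are descriptions only.

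Other factors of the gut epithelium moved in both directions. Of 21 listed, 9 were called lower and 6 higher in adenoma than in crypt cells, where 18.9% of all genes were called lower and 23.5% higher, with a list median of 0.28 against 0.02 over all genes. The largest falls were those of ligand-activated nuclear receptors. Nr5a2 (LRH-1, a receptor of crypt cells) went from 23.9 ± 5.56 to 0.504 ± 0.207 CPM (log2 change -5.70 ± 0.33). Vdr, the vitamin D receptor, went from 99.5 ± 13.4 to 3.80 ± 0.586 (-4.79 ± 0.19), and Nr1h4, the bile acid receptor FXR, from 14.5 ± 5.59 to 1.13 ± 0.632 (-4.06 ± 0.36). The largest rises were those of Onecut3 (2.31 ± 1.76 to 29.0 ± 6.30, change 3.40 ± 0.44), a paralog of Onecut2, and of Prdm1 (1.72 ± 0.215 to 14.6 ± 6.18, change 2.98 ± 0.46), the repressor Blimp-1 of the fetal intestine. Foxa2, a pioneer factor of endoderm, rose by 1.77 ± 0.49 (4.77 ± 2.02 to 17.5 ± 8.34), a call that was lost with cells thinned to 2000 UMIs (1.22, adjusted p = 0.107) and with stricter gates (1.27, adjusted p = 0.0544). Beside these rises, the summed Paneth markers were at 669 to 772 in adenoma cells and 104 to 322 in crypt cells, and the tuft markers at 105 to 157 and 5.19 to 11.0, of which Avil made up most in adenoma cells (133, pooled). Prdm1 was at 43.7 ± 20.1 in stromal cells. The part of these markers in the rises was not tested.

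**Figure D4:**
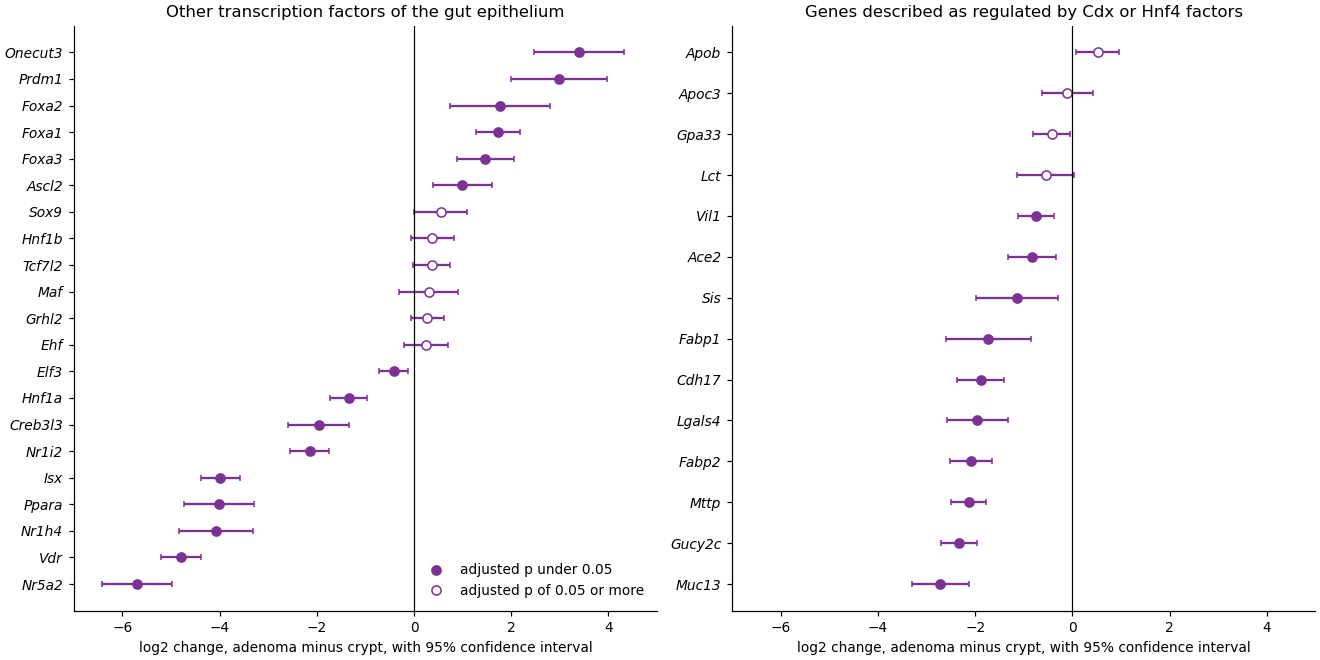
Log2 change in adenoma cells minus crypt cells (x axis), with 95% confidence intervals from edgeR, for other transcription factors of the gut epithelium and for genes described as regulated by Cdx or Hnf4 factors (y axes), with open points where the adjusted p was 0.05 or more. The factors spread from Nr5a2 at -5.70 to Onecut3 at 3.40, and no gene of the right panel was called higher.

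Of 14 genes described as regulated by Cdx or Hnf4 factors, 10 were called lower in adenoma than in crypt cells (18.9% of all genes were called lower), none higher and 4 (Lct, Gpa33, Apob and Apoc3) did not pass the test, with a list median of -1.44 against 0.02 over all genes. Muc13, a transmembrane mucin, went from 345 ± 36.2 to 56.5 ± 17.6 CPM (-2.72 ± 0.28). Gucy2c, the guanylin receptor, went from 60.3 ± 5.78 to 13 ± 3.39 (-2.33 ± 0.17), and Mttp, which loads lipid onto apolipoprotein B, from 57.6 ± 10.2 to 14.7 ± 5.20 (-2.13 ± 0.17). In enterocytes all 14 were called higher than in crypt cells, where 37.7% of all genes were called higher. The list median there was 5.06 against 0.09 over all genes. That comparison is not free of the gate, since enterocytes were chosen by other absorptive genes.

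Factors of the neighbouring organs were low in adenoma cells. Of the listed factors, Sox2 and Barx1 of the stomach and Hoxb13 of the distal colon were too low to be tested, with means of at most 0.255 CPM in adenoma cells. Pdx1, a factor of duodenum and pancreas, fell from 14.1 ± 6.14 to 4.90 ± 1.14 (-1.60 ± 0.28). The counts for the proximal and ileal genes stand beside 23.5% of all genes called higher and 18.9% called lower in adenoma than in crypt cells. Of 4 proximal genes, the ferric reductase Cybrd1 (1.55 ± 0.50, adjusted p = 0.0210) and the folate carrier Slc46a1 (0.58 ± 0.21, adjusted p = 0.0382) were called higher and none lower. At most 1 of the 4 was called higher when any 1 library was left out. Of 5 ileal genes, the bile acid importer Slc10a2 was called higher (3.71 ± 1.09, adjusted p = 0.0119), at 12.4 ± 4.82 in adenoma and 1.04 ± 1.52 in crypt cells. That call was lost with thinned cells (adjusted p = 0.254) and without the library block (0.0833). The bile acid exporter subunits Slc51b (-1.85 ± 0.43) and Slc51a (-1.80 ± 0.27) were called lower, but Slc51b was -0.54 with an adjusted p of 0.416 without VApcMinL replicate 2.

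The libraries labelled VApcMinL and ApcMin were compared within each class with the kit as a block, which asks whether the factors differed between the labels. None of the 10 was called in any of the 4 classes. In adenoma cells 0 of 12725 genes were called by edgeR (0% of genes; 25 at an unadjusted p under 0.05, and 3 called by DESeq2). In crypt cells 4 were called (0.0408%; Xist, Reg1 and Wfdc18 among them), in enterocytes 1 (0.00932%; Xist) and in secretory cells 3 (0.0332%; Xist, Nts and Gm21002). These genes were named after their values were seen. With 2 libraries per label the test had 1 residual degree of freedom per gene, before the spread was shared across genes. The width of the intervals differed between classes. For Cdx1 the interval ran from -4.48 to 3.85 in adenoma cells (SE 1.40) and from -0.32 to 0.41 in crypt cells (SE 0.17).

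The kit pairs disagreed for the factors that varied most. In adenoma cells the log2 difference VApcMinL minus ApcMin of Cdx1 was -2.48 with kit version 2 and 1.78 with version 3. Cdx2 gave -1.33 and 1.56, and Hnf4a -1.07 and 1.01. Gata4 gave -1.11 and 0.55 and Klf4 -1.15 and 0.07, whereas Onecut2 (0.06 and 0.16) and Hnf4g (0.19 and 0.08) hardly moved in either pair. In crypt cells the pairs of 9 factors stayed within -0.25 and 0.47, and only Klf4, with its low counts there, spread from -0.75 to 1.38. Onecut2 in crypt cells was the 1 member with an unadjusted p under 0.05 in any class (0.46 ± 0.15, adjusted p = 0.881 by edgeR).

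**Figure D5:**
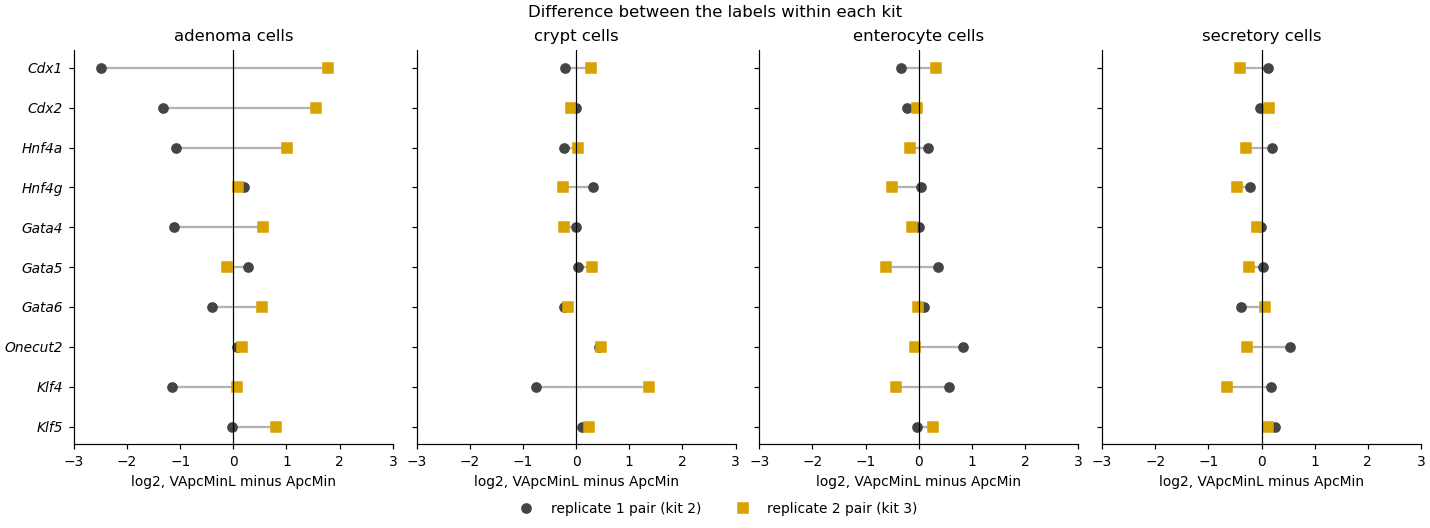
Log2 difference VApcMinL minus ApcMin (x axis) of each factor (y axis) within the kit version 2 pair (circles) and the kit version 3 pair (squares), in 4 panels for adenoma cells, crypt cells, enterocytes and secretory cells. In adenoma cells the Cdx1, Cdx2 and Hnf4a pairs lie on opposite sides of 0, and in crypt cells most pairs lie near 0.

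The change from crypt to adenoma cells itself was then tested for a difference between the labels. None of the 10 was called, and 0 of 11685 genes were called by edgeR (0% of genes; 121 at an unadjusted p under 0.05). The differences ran from -1.02 ± 0.66 for Klf4 to 0.25 ± 0.31 for Gata6, each with an adjusted p of 1.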

How the data were processed

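The deposited matrices held UMI counts per gene and cell barcode, made by the authors with Cell Ranger 2.1.1 (per the submitters' processing notes; mm10/GRCm38), and not normalized. The 4 libraries held 44660305 to 128247396 UMIs; those of kit version 2 list 27998 genes and those of version 3 list 31053. Barcodes with at least 2000 UMIs and at most 20% mitochondrial UMIs were kept (11297 cells) and gated on summed marker scores, whose cutoffs were set without the 10 factors and the labels. Cells over 2 cutoffs were left out (300), and 2395 epithelial cells met no gate. Doublets were handled as an alternative. UMIs were summed per library and class and tested with edgeR 4.0.16 (TMM, filterByExpr with a minimum count of 10, quasi-likelihood, Benjamini-Hochberg at 0.05), with library as a block between classes and kit as a block between labels. DESeq2 1.42.0, other scalings, filters, gates and left-out libraries were alternatives. Standard errors are the change over the root of F. Tested on simulated data for adenoma minus crypt (11432 genes), edgeR recovered 196 of 200 genes changed by 1.5 on the log2 scale, with 6 false calls. For the labels in adenoma cells (12667 genes) it recovered 144 of 200, also with 6 false calls. The simulated counts had a dispersion of 0.05 and no library or kit effect except depth. The recovery for the labels therefore does not measure the power of that test in these data, where the kit pairs disagreed.

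The members and lists were chosen with earlier results of these data known. Named were all 10 members, Lef1, the 3 called genes of each list with the largest rise and fall in adenoma minus crypt, and the 2 genes most correlated with each member. Some genes that these rules cover are not reported here. The replicate number marks the kit, which pairs libraries; deviations of same-kit libraries from their group means correlated at 0.305 in adenoma, 0.718 in crypt, 0.539 in enterocyte and 0.220 in secretory cells. Nothing in the labels says how many mice a library holds, so p-values measure the spread between these samples.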

Additional observations from a re-analysis of the deposited data

Results flagged for a closer look

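After TMM scaling Onecut2 moved from crypt to adenoma cells in opposite directions under the labels. It was higher in adenoma cells by 0.25 on the log2 scale in ApcMin replicate 1 and by 0.20 in ApcMin replicate 2. It was lower in both libraries labelled VApcMinL, at -0.11 in replicate 1 and -0.17 in replicate 2. On the CPM scale the split was not seen. There the ratio of adenoma to crypt cells was 1.02 in VApcMinL replicate 1 and 0.968 in VApcMinL replicate 2, against 1.31 and 1.26 in ApcMin replicates 1 and 2. The difference between the labels was tested across all genes with edgeR and did not pass (-0.37 ± 0.34, adjusted p = 1). No other member showed such a split in the 4 class comparisons.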

How the results depend on the processing

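In adenoma minus crypt the calls and directions of Cdx1, Cdx2, Hnf4a, Hnf4g, Klf4, Klf5 and Gata5 held under all 16 alternatives, for Cdx1 between -3.92 and -3.13 and for Klf4 between 2.22 and 2.76 on the log2 scale, with 7 or 8 members called. Thinning each cell to 2000 UMIs, which leaves fewer counts, lowered the genes called to 1666 in adenoma minus crypt, 4292 in enterocyte minus crypt, 2448 in secretory minus crypt, 5276 in adenoma minus enterocyte, 2763 in adenoma minus secretory and 3137 in enterocyte minus secretory (4 members called). For the remaining changes the cause was not tested. Gata6 in adenoma minus crypt, near 0 throughout, was -0.0035 with a mitochondrial limit of 10%, -0.054 without doublets, -0.22 with stricter gates, -0.046 under DESeq2 and -0.043 with RLE factors, and between -0.13 and 0.15 with 1 library left out. Onecut2 there was -0.012 without doublets, -0.0028 with the alternative adenoma markers, -0.0073 under DESeq2, -0.0068 with RLE factors and between -0.10 and 0.080 with 1 library left out. With thinned cells Gata4 was 0.035 in adenoma minus crypt and 0.20 in secretory minus crypt, where Cdx1 was 0.065 and Onecut2 0.082. Gata6 in secretory minus crypt was -0.18 with stricter gates (Hnf4g 0.11), -0.21 with library totals only, -0.043 without a filter and between -0.030 and 0.13 with 1 library left out. Library totals only also gave Cdx2 -0.43 in enterocyte minus crypt, Gata5 0.050, Onecut2 0.17 and Klf5 0.14 in adenoma minus enterocyte, and 6 members called in secretory minus crypt.

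Between the labels in adenoma cells, no member was called under any alternative. Thinned cells gave Cdx2 -0.12, Hnf4a 0.040 and Hnf4g -0.40, and Hnf4a was 0.042 with stricter gates and with the alternative markers. With 1 library left out, so that the lone library of a label is assumed to vary like the others, the differences ran from -1.80 to 1.09 for Cdx1, -0.72 to 1.09 for Cdx2, -0.63 to 0.67 for Hnf4a, -0.87 to 0.25 for Gata4, -0.060 to 0.20 for Gata5, -0.37 to 0.47 for Gata6 and -0.0070 to 0.77 for Klf5. DESeq2 called 3 genes. In crypt cells the genes called were 22 at a floor of 5000 UMIs, 1 with the 10% limit, 14 without doublets, 7 thinned, 25 with stricter gates, 20 with RLE factors, 2 with library totals, 75 without a filter and 0 to 2 with 1 library left out. In enterocytes they were 3 without doublets, 0 with the alternative markers and with RLE factors, 49 without a filter and 0 to 4 with 1 library left out. In secretory cells they were 1 at 5000 UMIs and with the 10% limit, 30 without doublets, 5 under DESeq2, 36 without a filter and 0 to 20 with 1 library left out. The label difference in adenoma minus crypt gave 13 genes without a filter.

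Without the replicate block the genes called between labels were 0 in crypt cells, 0 in enterocytes and 0 in secretory cells, Gata6 in adenoma minus crypt was -2.56e-05, and among members the calls of Klf5 against crypt cells were lost in enterocytes (adjusted p = 0.278) and secretory cells (0.230, by edgeR), as was its call in adenoma minus enterocyte (0.0751). Each label has 2 libraries, and the few crypt (483) and secretory (409) cells limit the low genes there.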
